A study of Mus musculus with 8 samples.

Results

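Integrins and laminins were examined as a receptor family and one of its main ligand families, in mouse cells isolated by flow sorting from embryoid bodies, cultured clumps of differentiating stem cells. The members were all genes of the deposited count table whose symbols name an integrin alpha subunit, an integrin beta subunit or a laminin alpha, beta or gamma chain. This gave 37 of the 34536 symbols, namely 18 integrin alpha, 8 integrin beta and 11 laminin genes. RNA sequencing libraries had been made from 4 samples labelled endocardial (libraries A, C, E and G), and 4 more came from samples labelled endothelial (libraries B, D, F and H). Endocardium is the inner lining of the heart, itself a kind of endothelium, and the series, by its title, asks whether heart muscle differentiation in culture depends on its signals. The labels give no genotype, treatment, culture day, cell line or sort marker, and do not say that libraries came from separate cultures, so p-values measure only how these samples vary, and that variation may be technical.

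Integrins are heterodimers of 1 alpha and 1 beta subunit that span the plasma membrane and tie the extracellular matrix to the actin cytoskeleton. The alpha subunit largely sets the ligand: some alpha subunits bind laminin, some bind collagen, some bind the RGD peptide of fibronectin and vitronectin, and a further set is carried by leukocytes. Laminins are heterotrimers of 1 alpha, 1 beta and 1 gamma chain and form the sheet on which basement membranes are built. Endothelial basement membranes are known for laminins with the alpha 4 and alpha 5 chains, early embryonic ones for the alpha 1 chain.

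Library totals ran from 6677667 to 11369363 estimated counts, and levels are given as CPM, the count relative to a library total scaled by TMM, edgeR's library scaling. A gene was called when edgeR's quasi-likelihood test gave an adjusted p below 0.05 over all 13817 tested genes. The endocardial libraries had the higher level of genes shared by all endothelium, with 17 of 20 markers called higher. These 20 markers summed to 1710.4 to 2140.1 CPM in the endocardial and 497 to 944 CPM in the endothelial libraries. The endocardial transcription factor gene Nfatc1 was also called higher, at 48.9 ± 5.07 against 11.5 ± 2.53 CPM (SD, n = 4 each). Of 7 tested endocardium markers 4, Nfatc1 included, were called higher, and Npr3, Gata4 and Cdh11 were not called. Of all tested genes 2.58% were called. Summed transcripts of pluripotent cells (12 markers) were the higher in the endothelial libraries. They came to 40.2 to 149 CPM in the endocardial and 156 to 1045 CPM in the endothelial libraries. Library F alone held 1045 CPM, of which Dppa5a gave 486 CPM. All 12 log2 fold changes were negative (Klf2 and Klf4 at -0.12 each), 2 markers, Tdgf1 and Fgf4, were called lower and 10 were not called. Of 11 tested markers of neural ectoderm 7 were called lower in the endocardial libraries. The summed level of 10 mesenchyme markers was highest in library B, at 22365 CPM. That sum came mainly from Col1a1, Col1a2 and Col3a1, at 10383, 5439 and 5722 CPM in B. Not all markers of the list were high in B, and Thy1 was lowest there, at 7.67 CPM. Markers of blood and platelets (15 genes, none at 0 in all libraries) had their highest sums in A and B, at 1381 and 1927 CPM. The other 6 libraries had 206 to 657 CPM. These sums came mainly from globin genes, with Hbb-bh1 at 823 CPM in A and 1252 CPM in B. In B, Runx1 (18.1 CPM) and Myb (8.11 CPM) of the same list were below all endocardial libraries. In bulk samples fewer cells of a type and less RNA per cell cannot be told apart.

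Few integrin and laminin genes passed the test between the 2 groups. Of the 37 members, 33 had enough counts to be tested and 4 (Itgad, Itgax, Itgb6 and Itgb7) did not. Itga9, the alpha 9 integrin subunit, and Lama3, the laminin alpha 3 chain, were called higher in the endocardial libraries, 0 members were called lower and 31 were not called. The 2 called genes are 6.06% of the 33, where 2.58% of all tested genes were called, 1.42% higher and 1.16% lower. At an unadjusted p below 0.05 there were 9 members (4 with a positive and 5 with a negative log2 fold change), 27.3% of the 33 where 14.6% of all genes passed. The median log2 fold change was -0.06 over the tested members and 0.01 over all tested genes, with 16 members above and 17 below 0. Groups without overlap were seen in 3 tested members (Itga9, Lama3 and Lama5), 9.09%, beside 9.76% of all tested genes. DESeq2 and limma with voom weights each called 5 members (Itga9, Lama3, Lama5 and Itgb8 by both), where they called 6.25% and 6.96% of all genes, and edgeR called 0 members when C, D, E or G was left out.

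**Figure D1:**
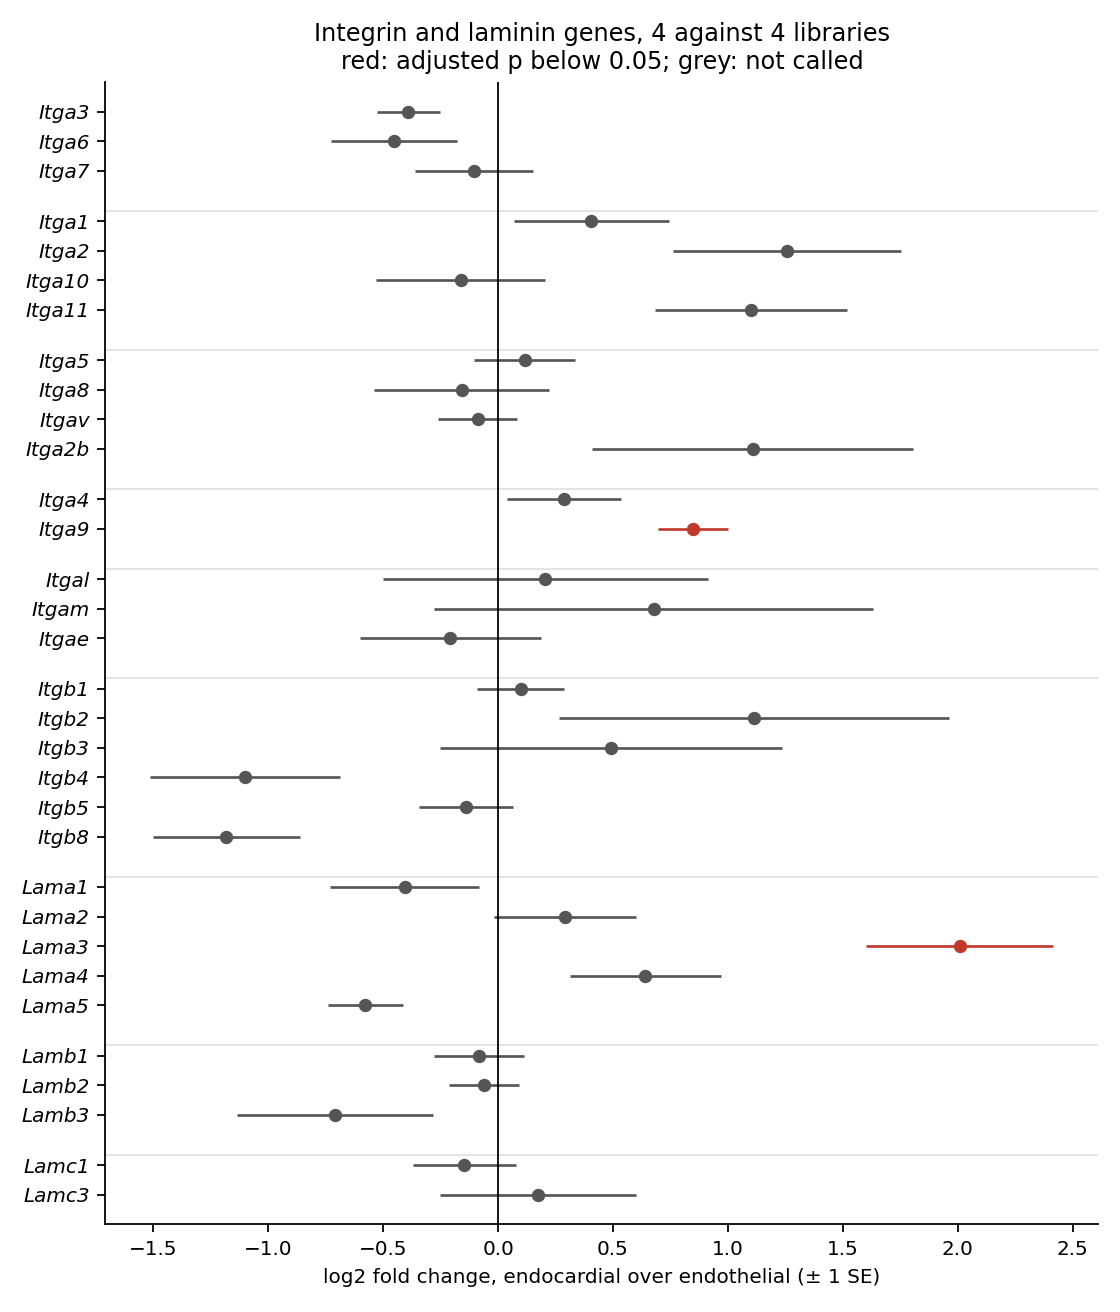
Log2 fold change of the endocardial over the endothelial libraries for 32 of the 33 tested members (edgeR, points with bars of 1 SE, 4 libraries each), grouped by subunit class. Itga9 at 0.85 and Lama3 at 2.01 are in red because their adjusted p was below 0.05, and the bars of the abundant chains Itgb1, Lamb1, Lamb2 and Lamc1 cross or touch 0.

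Itga9 was higher in the endocardial libraries. It codes for the subunit that pairs with beta 1 and binds tenascin, VCAM1 and the EIIIA segment of fibronectin, and it is known for its part in lymphatic valves. The gene lies in mouse build GRCm38 at chromosome 9, 118606690 to 118901003. Its levels were 81.6 (A), 95.7 (C), 91.0 (E) and 80.5 (G) CPM in the endocardial libraries and 55.9 (B), 46.6 (D), 56.1 (F) and 35.04 (H) CPM in the endothelial libraries. The lowest endocardial library, G, was above the highest endothelial library, F. The means were 87.2 ± 7.36 against 48.4 ± 9.96 CPM (SD, n = 4 each), a 1.8-fold difference (log2 fold change 0.85, SE 0.15, edgeR adjusted p = 0.0203). With 1 library left out at a time the call held in 4 of 8 fits, and it was lost without C (adjusted p = 0.0819), D (0.083), E (0.0755) or G (0.0538), with log2 fold changes of 0.72 to 0.98 over all alternatives. Over the same libraries the median over the 20 pan-endothelial markers was 2.25 on the log2 scale, and their part in the result was not tested. Itga4, the subunit closest to alpha 9 in ligands and a receptor for VCAM1 and fibronectin, was not called, at 76.8 (A), 76.1 (C), 39.5 (E) and 60.9 (G) CPM in the endocardial libraries and 72.0 (B), 52.1 (D), 36.5 (F) and 46.6 (H) CPM in the endothelial libraries (log2 fold change 0.29, SE 0.25, edgeR adjusted p = 0.676). Its groups overlapped, with library E low among the endocardial libraries.

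**Figure D2:**
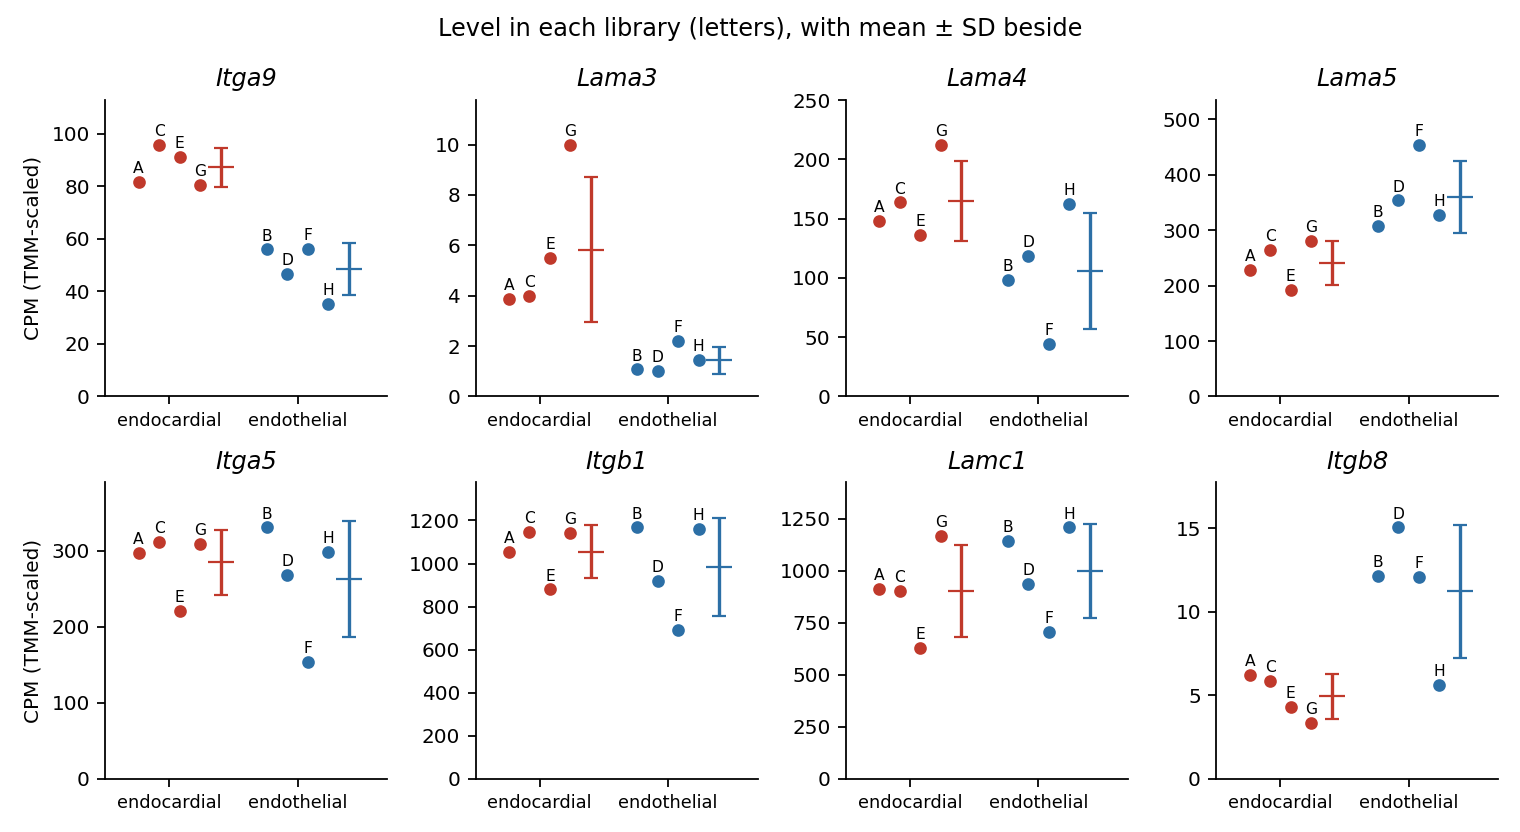
CPM of 8 members in each library (letters; red endocardial, blue endothelial), with the mean and SD of 4 libraries beside each group. Itga9, Lama3 and Lama5 show groups that do not overlap, whereas Itga5, Itgb1 and Lamc1 share a low value in libraries E and F and overlap throughout.

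The laminin receptors on the integrin side had negative log2 fold changes and were not called. Itga3, whose product binds laminins with the alpha 5 chain, was at 124 (A), 154 (C), 121 (E) and 128 (G) CPM in the endocardial libraries and 202 (B), 174 (D), 137 (F) and 178 (H) CPM in the endothelial libraries (log2 fold change -0.39, SE 0.14, edgeR adjusted p = 0.192). Only library C of the endocardial group reached into the endothelial range. Itga6, which pairs with beta 1 or beta 4 to bind laminin, was at 116 (A), 80.9 (C), 84.0 (E) and 64.2 (G) CPM in the endocardial libraries and 98.9 (B), 109.7 (D), 187 (F) and 76.9 (H) CPM in the endothelial libraries (log2 fold change -0.45, SE 0.27, edgeR adjusted p = 0.525). Library F stood highest, and without it the log2 fold change was -0.16. F was also the library with the highest pluripotency marker level (1045 CPM against 156 to 301 CPM in the other endothelial libraries), and what those transcripts have to do with its Itga6 level was not tested. Itga7, the laminin receptor subunit of muscle, was low at 9.42 ± 2.2 against 10.1 ± 3.11 CPM (SD, n = 4 each). Itgb4, the hemidesmosome subunit that pairs only with alpha 6, was at 2.26 ± 0.823 against 4.82 ± 2.35 CPM (SD, n = 4 each, log2 fold change -1.10, SE 0.41, edgeR adjusted p = 0.237), with its highest levels in F and H.

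The fibronectin receptor formed by alpha 5 and beta 1 had the most abundant alpha and beta transcripts of the family in both groups. Levels of different genes are compared here only as CPM per kb of merged exon sequence, and such comparisons depend on the gene length used. On that scale Itgb1, the beta subunit shared by most matrix receptors, had 259 in the endocardial and 241 CPM per kb in the endothelial libraries, which was 74.9% ± 6.003 and 74.0% ± 4.48 of the summed level of the 8 beta genes (SD, n = 4). Itga5 led the alpha subunits at 57.8 and 53.3 CPM per kb, or 34.8% ± 4.39 and 34.6% ± 6.35 of the summed alpha level. Itgb5, a subunit of the vitronectin receptor alpha v beta 5, was the next beta gene at 59.1 and 65.1 CPM per kb. In CPM, Itgb1 was at 1052 (A), 1147 (C), 879.9 (E) and 1143 (G) CPM in the endocardial libraries and 1168 (B), 919 (D), 692 (F) and 1162 (H) CPM in the endothelial libraries (log2 fold change 0.10, SE 0.19, edgeR adjusted p = 0.879). Itga5 was at 297 (A), 312 (C), 221 (E) and 309.6 (G) CPM in the endocardial libraries and 331 (B), 268 (D), 154 (F) and 298 (H) CPM in the endothelial libraries (log2 fold change 0.12, SE 0.22, edgeR adjusted p = 0.879). Itgb5 was at 229 (A), 226 (C), 165 (E) and 220.1 (G) CPM in the endocardial libraries and 303 (B), 220.1 (D), 149 (F) and 253 (H) CPM in the endothelial libraries (log2 fold change -0.14, SE 0.20, edgeR adjusted p = 0.83). In all 3 genes E was the lowest endocardial and F the lowest endothelial library, and the groups overlapped.

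Itga5, Itgb1 and Itgb5 moved together from library to library, a pattern picked out after the values were seen. The ratio of Itga5 to Itgb1 per kb stayed between 0.184 and 0.242 in all 8 libraries, a 1.31-fold span, while Itga5 alone spanned 2.15-fold. The ratio of Itgb5 to Itgb1 spanned 1.39-fold (0.215 to 0.298) and that of Itga6 to Itgb1 4.8-fold. The Itga6 ratio was 0.122 in library F and 0.0254 to 0.0539 in the others. Such narrow spans were not particular to these 3 genes, since the ratio of Lamb1 to Lamc1 spanned 1.25-fold. For Itga5, Itgb1 and Itgb5 the 250 bases before the RefSeq starts are shown 5′ to 3′ on the coding strand, in build GRCm38.p6. Capitals mark the GC box GGGCGG or its reverse complement, a short motif bound by Sp-family factors. Sequences were matched for 23 of the 37 members.
Itga5, chr15:103366792-103367041, minus strand: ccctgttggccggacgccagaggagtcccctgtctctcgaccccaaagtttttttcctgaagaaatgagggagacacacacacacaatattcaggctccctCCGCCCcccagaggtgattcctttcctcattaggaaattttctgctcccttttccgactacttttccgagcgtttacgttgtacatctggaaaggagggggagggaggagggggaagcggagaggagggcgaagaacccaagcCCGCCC
Itgb1, chr8:128685404-128685653, plus strand: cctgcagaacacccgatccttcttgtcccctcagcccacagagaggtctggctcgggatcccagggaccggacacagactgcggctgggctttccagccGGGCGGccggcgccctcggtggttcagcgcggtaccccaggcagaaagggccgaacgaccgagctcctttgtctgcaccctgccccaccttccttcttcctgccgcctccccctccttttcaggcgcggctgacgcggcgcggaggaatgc
Itgb5, chr16:33829415-33829664, plus strand: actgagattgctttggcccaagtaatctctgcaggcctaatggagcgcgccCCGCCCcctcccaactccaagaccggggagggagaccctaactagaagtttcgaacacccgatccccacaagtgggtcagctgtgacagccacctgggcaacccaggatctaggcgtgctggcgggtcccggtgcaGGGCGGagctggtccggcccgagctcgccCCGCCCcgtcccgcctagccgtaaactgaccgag
The motif was found 2 times for Itga5, 1 time for Itgb1 and 3 times for Itgb5, counting both strands. Of all 32851 windows of the same length in the RefSeq table, 32.7% hold it at least 1 time. The windows of Itga5, Itgb1 and Itgb5 are 55.6%, 68.0% and 65.2% G or C, and the median over all windows is 52.4%. A match describes the letters only.

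The other RGD receptors were not called either. Itga8, a subunit that pairs with beta 1 to bind nephronectin and fibronectin, was at 120.1 (A), 90.3 (C), 59.1 (E) and 118 (G) CPM in the endocardial libraries and 175 (B), 92.1 (D), 42.5 (F) and 122 (H) CPM in the endothelial libraries (log2 fold change -0.16, SE 0.38, edgeR adjusted p = 0.908). Its levels ran high in B and low in F. Itgav, the alpha v subunit shared by several beta partners, was at 150.0 (A), 142 (C), 103 (E) and 121 (G) CPM in the endocardial libraries and 186 (B), 125 (D), 121 (F) and 118 (H) CPM in the endothelial libraries (log2 fold change -0.09, SE 0.17, edgeR adjusted p = 0.883). B was the highest library and the remaining endothelial libraries lay within the endocardial range. Itgb8, which pairs with alpha v to activate latent TGF-beta, was at 6.2 (A), 5.86 (C), 4.3 (E) and 3.37 (G) CPM in the endocardial libraries and 12.1 (B), 15.04 (D), 12.1 (F) and 5.62 (H) CPM in the endothelial libraries (log2 fold change -1.18, SE 0.32, edgeR adjusted p = 0.092). Only library H of the endothelial group reached into the endocardial range. Itgb8 was called lower by DESeq2 (adjusted p = 0.016), by limma (0.0477) and by edgeR without H (0.0262). Itgb6, the epithelial partner of alpha v, was too low to test, with counts of 3 to 10 in each library.

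Of the collagen receptors, Itga1, which binds basement membrane collagen IV, was at 56.9 (A), 55.1 (C), 51.3 (E) and 79.5 (G) CPM in the endocardial libraries and 50.5 (B), 40.7 (D), 18.9 (F) and 73.2 (H) CPM in the endothelial libraries (log2 fold change 0.41, SE 0.34, edgeR adjusted p = 0.667). F was the lowest library and H the highest of the endothelial group. Itga2, Itga10 and Itga11 were low, with means of 1.22 to 5.78 CPM in either group. Itga2 and Itga11 had positive log2 fold changes of 1.26 (SE 0.50, edgeR adjusted p = 0.264) and 1.10 (SE 0.42, adjusted p = 0.242). Itga2, a subunit of the collagen receptor of platelets and epithelium, was called by limma (adjusted p = 0.0332) and by neither edgeR nor DESeq2. Itga1 and Itga2 are neighbours on chromosome 13, with a gap of 20995 bases, and Itga1 was 3.26 against 0.421 CPM per kb for Itga2 in the endocardial libraries.

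Integrin genes of platelets and blood varied widely among the libraries of each group. Itga2b codes for the subunit known as CD41, an early marker of blood formation in the embryo, and pairs with the product of Itgb3 to form the platelet fibrinogen receptor. Itga2b was at 306 (A), 106 (C), 83.6 (E) and 107 (G) CPM in the endocardial libraries and 184 (B), 22.9 (D), 43.2 (F) and 27.4 (H) CPM in the endothelial libraries (log2 fold change 1.11, SE 0.70, edgeR adjusted p = 0.548). Itgb3 was at 340.1 (A), 91.9 (C), 76.2 (E) and 69.4 (G) CPM in the endocardial libraries and 262 (B), 35.5 (D), 74.5 (F) and 36.7 (H) CPM in the endothelial libraries (log2 fold change 0.49, SE 0.74, edgeR adjusted p = 0.841). A was the highest endocardial and B the highest endothelial library in both genes, as in the summed blood and platelet markers, which were mainly globin transcripts. The ratio of Itga2b to Itgb3 per kb was 0.974 to 1.67 in the endocardial and 0.627 to 0.807 in the endothelial libraries, so that the groups did not overlap, a description chosen after the values were seen. Leaving out both A and B, chosen after seeing the data, Itga2b was called higher (log2 fold change 1.66, edgeR adjusted p = 0.014) and Itgb3 was not (0.69, adjusted p = 0.33). Without B alone Itga2b was also called (2.27, adjusted p = 0.0495), and in the other 7 such fits it was not. In the 6 libraries other than A and B, the 15 blood and platelet markers summed to 377 to 657 CPM in C, E and G and to 206 to 322 CPM in D, F and H. Of the 15, 6 were higher in C, E and G without overlap, 0 were lower and 9 overlapped. The share of all genes without overlap in these libraries was not computed. Runx1, a transcription factor gene of blood formation, was at 34.6 (C), 27.7 (E) and 27.8 (G) against 13.1 (D), 6.57 (F) and 16.7 (H) CPM, while Pf4, a platelet chemokine gene, overlapped at 1.88 (C), 3.98 (E) and 3.24 (G) against 1.75 (D), 10.1 (F) and 5.26 (H) CPM. The part of these markers in the Itga2b difference was not tested.

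**Figure D3:**
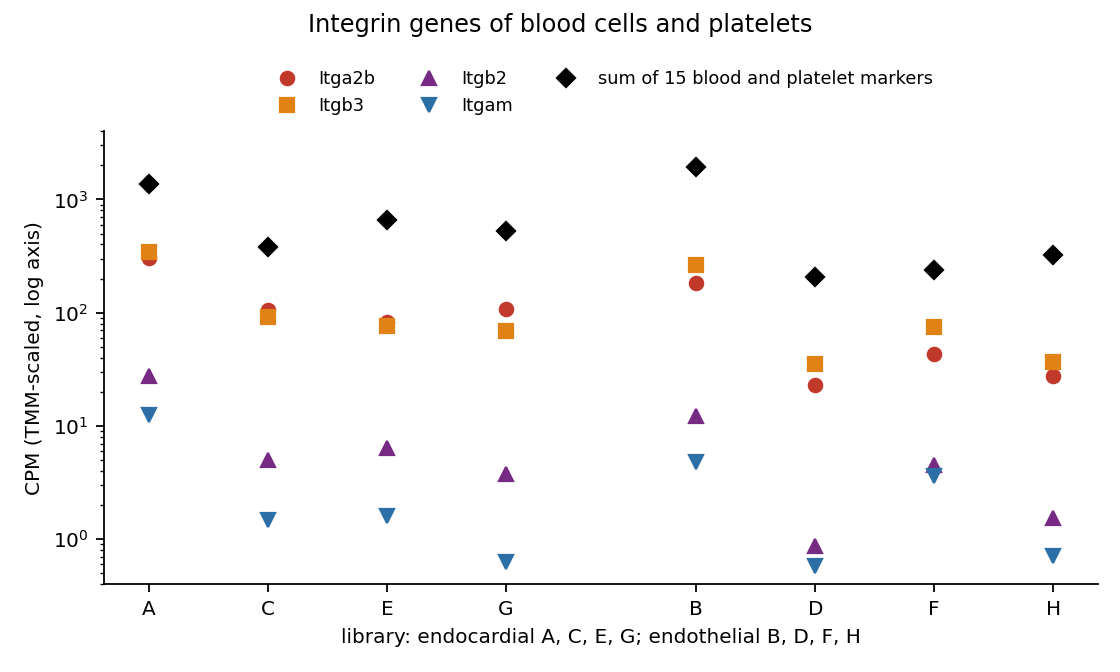
CPM of Itga2b, Itgb3, Itgb2 and Itgam in each library on a log axis, with the summed CPM of 15 blood and platelet markers as black diamonds. The summed CPM came mainly from globin genes. Within each group the highest value of every series is in the same library, A for the endocardial and B for the endothelial group.

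The leukocyte integrins were low. Itgb2, their shared beta subunit, was at 27.8 (A), 5.02 (C), 6.34 (E) and 3.74 (G) CPM in the endocardial libraries and 12.3 (B), 0.876 (D), 4.49 (F) and 1.55 (H) CPM in the endothelial libraries (log2 fold change 1.11, SE 0.85, edgeR adjusted p = 0.636). Itgam, the alpha subunit of macrophages and granulocytes, was at 12.5 (A), 1.47 (C), 1.61 (E) and 0.624 (G) CPM in the endocardial libraries and 4.81 (B), 0.584 (D), 3.65 (F) and 0.717 (H) CPM in the endothelial libraries (log2 fold change 0.68, SE 0.96, edgeR adjusted p = 0.824). Both were highest in A, where Csf1r, the macrophage growth factor receptor, was at 118 CPM against 2.34 to 38.1 CPM elsewhere. Without A the log2 fold change of Itgam was -1.02 and that of Itgb2 0.02. Itgal and Itgae were not called, at log2 fold changes of 0.21 and -0.21, and neither passed 9.42 CPM in any library. Itgad and Itgax, which lie beside Itgam on chromosome 7, and Itgb7, the partner of alpha E, had too few counts to test. Itgad was at 0 in D and E, where 3 counts would have been 0.438 and 0.323 CPM, a limit that covers counting error only.

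Among the laminin alpha chains, Lama1, Lama5 and Lama4 made up nearly all of the level in both groups. Lama1, the chain of the early embryo, was at 271 (A), 259 (C), 163 (E) and 364 (G) CPM in the endocardial libraries and 472 (B), 314 (D), 172 (F) and 441 (H) CPM in the endothelial libraries (log2 fold change -0.41, SE 0.32, edgeR adjusted p = 0.651). The groups overlapped, with E and F low and B high. Lama5, the alpha chain of the most widespread basement membrane laminin, was at 228 (A), 264 (C), 192 (E) and 281 (G) CPM in the endocardial libraries and 308 (B), 354 (D), 454 (F) and 327 (H) CPM in the endothelial libraries (log2 fold change -0.58, SE 0.16, edgeR adjusted p = 0.104). All 4 endothelial libraries lay above all 4 endocardial libraries, although edgeR did not call the gene. DESeq2 and limma did call it lower in the endocardial libraries (adjusted p = 0.0126 and 0.0339). F was the highest, and without it the log2 fold change was -0.47 (edgeR adjusted p = 0.174). Lama4, a chain of endothelial and muscle basement membranes, was at 148 (A), 164 (C), 136 (E) and 212 (G) CPM in the endocardial libraries and 98.1 (B), 119 (D), 44.3 (F) and 162 (H) CPM in the endothelial libraries (log2 fold change 0.64, SE 0.33, edgeR adjusted p = 0.427). F was the lowest library and H lay within the endocardial range, and without F the log2 fold change was 0.37.

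Lama3, the alpha chain of epithelial laminin 332, was called higher, at a low level. The gene lies at chromosome 18, 12333819 to 12583013 in GRCm38. Its levels were 3.87 (A), 3.98 (C), 5.48 (E) and 9.98 (G) CPM in the endocardial libraries and 1.07 (B), 1.02 (D), 2.19 (F) and 1.43 (H) CPM in the endothelial libraries. They rest on 30, 38, 51 and 80 counts in the endocardial and 12, 7, 21 and 12 counts in the endothelial libraries. The groups did not overlap, and G was the highest library. The means were 5.83 ± 2.86 against 1.43 ± 0.54 CPM (SD, n = 4 each), a 4.02-fold difference (log2 fold change 2.01, SE 0.41, edgeR adjusted p = 0.0329). The call held without A or F and was lost in the other 6 fits that leave out 1 library, where the adjusted p ran up to 0.104 (without D). Lamb3, the beta chain of laminin 332, was not called, at 1.57 ± 0.675 against 2.58 ± 1.04 CPM (SD, n = 4 each, log2 fold change -0.71). Markers of epithelium (12 genes) summed to 577 to 954 CPM in the endocardial and 737 to 1362 CPM in the endothelial libraries, with overlap, and Krt8 and Krt18 had the highest mean levels of the list. Of the 12, 10 had negative log2 fold changes (median -1.55), and the 2 others were Krt8 and Krt18. Groups without overlap were seen in 6 (50%), beside 9.76% of all tested genes. In the endocardial libraries 2 were called lower (16.7%), where 2.58% of all genes were called. These were Cdh1 at 27.7 ± 11.1 against 121 ± 69.2 CPM (SD, n = 4 each) and Epcam at 7.73 ± 2.27 against 35.5 ± 25.5 CPM (SD, n = 4 each). Lama2, the muscle laminin chain, was not called, at 11.7 ± 4.76 against 9.53 ± 2.995 CPM (SD, n = 4 each, log2 fold change 0.29).

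The makeup of the laminin alpha pool was compared as the share of each chain in the summed CPM per kb of the 5 Lama genes. Lama4 took 21.7% ± 1.92 in the endocardial and 11.0% ± 4.11 in the endothelial libraries (SD, n = 4 each). Its share was 20.01% (A), 20.8% (C), 24.4% (E) and 21.6% (G) against 9.57% (B), 13.3% (D), 5.93% (F) and 15.2% (H), so the groups did not overlap (two-sided exact permutation p = 0.0286, adjusted p = 0.0714 over the 5 chains). The raw p is the smallest that 4 against 4 libraries allow. The adjusted value missed 0.05, which a single share of 5 could not pass. The size of the Lama4 share depends on the gene length used, since its merged exons have 12068 bases and its longest transcript 6046. With the longest transcript the Lama4 difference was 15.8 percentage points (exact permutation adjusted p = 0.0714), against 10.7 with merged exons. Lama3, at 0.852% ± 0.316 in the endocardial and 0.182% ± 0.0994 in the endothelial libraries, gave the same p-values. Lama1 took 42.4% ± 4.56 in the endocardial and 45.4% ± 12.4 in the endothelial libraries (two-sided exact permutation p = 0.686, adjusted p = 0.686), Lama5 33.8% ± 2.82 in the endocardial and 42.7% ± 15.2 in the endothelial libraries (two-sided exact permutation p = 0.343, adjusted p = 0.429) and Lama2 1.19% ± 0.518 in the endocardial and 0.751% ± 0.172 in the endothelial libraries (two-sided exact permutation p = 0.229, adjusted p = 0.381), and their groups overlapped. Library F stood apart among the endothelial libraries, with 64.3% Lama5 and 28.7% Lama1. Without F the Lama4 share was still higher, by 9.04 percentage points against 10.7 with it, while the Lama5 difference shrank from -8.82 to -1.6 points.

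**Figure D4:**
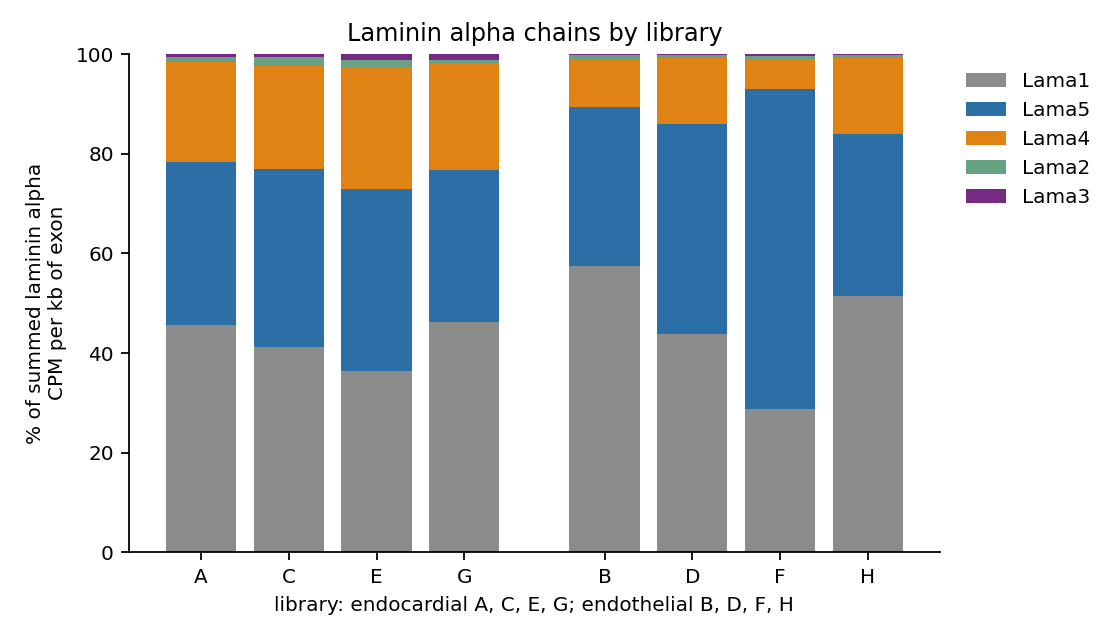
Share of each laminin alpha chain in the summed CPM per kb of the 5 Lama genes, 1 bar per library (endocardial A, C, E and G on the left, endothelial B, D, F and H on the right). The orange Lama4 segment is 20.01% to 24.4% of every endocardial bar and 5.93% to 15.2% of every endothelial bar, and library F is mostly Lama5.

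The beta and gamma chains that these alpha chains share differed by less than 1 SE between the groups. Lamb1, the main beta chain, was at 632 (A), 723 (C), 543 (E) and 824 (G) CPM in the endocardial libraries and 788 (B), 687 (D), 513 (F) and 899 (H) CPM in the endothelial libraries (log2 fold change -0.08, SE 0.20, edgeR adjusted p = 0.902). Lamc1, the gamma chain of most laminins, was at 914 (A), 903 (C), 627 (E) and 1166 (G) CPM in the endocardial libraries and 1141 (B), 938 (D), 708 (F) and 1208 (H) CPM in the endothelial libraries (log2 fold change -0.15, SE 0.22, edgeR adjusted p = 0.841). Lamb2, the beta chain of mature basement membranes, was at 207 (A), 215 (C), 152 (E) and 258 (G) CPM in the endocardial libraries and 228 (B), 227 (D), 202 (F) and 211 (H) CPM in the endothelial libraries (log2 fold change -0.06, SE 0.15, edgeR adjusted p = 0.91). In Lamb1 and Lamc1, E was the lowest endocardial and F the lowest endothelial library, and G and H were the highest of their groups. Per kb of merged exon, Lamc1 was the most abundant laminin gene at 109 and 121 CPM, followed by Lamb1 at 68.6 and 72.8. The size of that gap depends on the gene length used. Merged exons and longest transcript have 9917 and 5784 bases for Lamb1, and 8272 and 7622 bases for Lamc1. Levels of single genes per kb of longest transcript were not compared. Lamb2 at 34.2 and 35.7 and Lama1 at 27.3 and 36.1 had overlapping library ranges. The ratio of Lamb1 to Lamc1 stayed within 0.576 to 0.722 over the 8 libraries, and that of the summed alpha chains to Lamc1 within 0.554 to 0.724. Lamc3 was at 0.466 and 0.416 CPM per kb (log2 fold change 0.18).

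The makeup of the integrin alpha pool was compared in the same way by ligand class. RGD receptors took 65.2% ± 4.56 and 59.4% ± 8.3 of the summed alpha level in the endocardial and endothelial libraries (SD, n = 4 each, two-sided exact permutation p = 0.229, adjusted p = 0.286 over the 5 classes). Laminin receptors took 20.5% ± 3.02 and 30.2% ± 6.89 (two-sided exact permutation p = 0.0571, adjusted p = 0.143), with only B, at 22.7%, among the endothelial libraries inside the endocardial range. The alpha 4 and alpha 9 class took 9.65% ± 1.57 and 6.68% ± 1.39 (two-sided exact permutation p = 0.0571, adjusted p = 0.143), collagen receptors 3.49% ± 0.624 and 2.76% ± 0.454 (two-sided exact permutation p = 0.114, adjusted p = 0.19) and leukocyte subunits 1.13% ± 1.05 and 0.901% ± 0.508 (two-sided exact permutation p = 0.857, adjusted p = 0.857). None of the 5 shares differed at an adjusted p below 0.05. The smallest exact permutation p with 4 against 4 libraries is 0.0286, so a single share could not pass after adjustment over 5. Without F the difference in laminin receptors was -6.72 percentage points, against -9.72 with it, and that in RGD receptors 2.08 against 5.79. The RGD class includes the platelet subunit gene Itga2b, at mean levels of 27.6 (endocardial) and 12.7 CPM per kb (endothelial). The summed alpha levels were 168 and 154 CPM per kb, and shares without Itga2b were not computed.

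Other genes of cell-matrix adhesion were taken from 5 lists of ligands, receptors, adaptors and regulators, in which 96 of 106 genes were tested. Of these, 3 were called higher and 2 lower, 5.21% beside the 2.58% of all genes, with a median log2 fold change of 0.10 beside 0.01. Of the 19 tested basement membrane genes, 2 were lower and 17 were not called. The lower genes, Frem2 and Fras1, code for partners in the complex that anchors embryonic epithelia to their basement membrane. Frem2 was at 63.1 (A), 60.5 (C), 48.0 (E) and 59.6 (G) CPM in the endocardial libraries and 132 (B), 177 (D), 273 (F) and 131 (H) CPM in the endothelial libraries (log2 fold change -1.63, SE 0.23, edgeR adjusted p = 0.0069). Fras1 was at 46.2 (A), 46.7 (C), 31.2 (E) and 41.0 (G) CPM in the endocardial libraries and 79.4 (B), 72.4 (D), 89.0 (F) and 64.3 (H) CPM in the endothelial libraries (log2 fold change -0.89, SE 0.15, edgeR adjusted p = 0.0162). In both genes all endothelial libraries were above all endocardial libraries, and F was the highest. Without D or without G Fras1 was no longer called, at an adjusted p up to 0.0654, whereas Frem2 was called whichever library was left out. Of the 12 epithelial markers 10 also had negative log2 fold changes, Cdh1 of -2.12 and Epcam of -2.20, and their part was not tested.

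The genes of other core basement membrane components named here, Col4a1, Col4a2, Nid1 and Hspg2, were not called. Col4a1 and Col4a2, the main collagen IV chains, were at 1447 ± 232 against 997 ± 300.5 CPM (SD, n = 4 each) and 888 ± 127 against 609 ± 145 CPM (SD, n = 4 each), with log2 fold changes of 0.54 (edgeR adjusted p = 0.317) and 0.54 (adjusted p = 0.204). Both passed 0.05 in 1 of 17 alternatives, limma with voom weights (Col4a1 0.0405, Col4a2 0.0195). Nid1, which links laminin to collagen IV, had a log2 fold change of 0.25 and the proteoglycan gene Hspg2 one of 0.07. Fn1, the fibronectin bound by alpha 5 beta 1, had a higher mean level per kb than any integrin or laminin gene (482 and 515 CPM per kb). It was at 6556 (A), 5824 (C), 3094 (E) and 7053 (G) CPM in the endocardial libraries and 9398 (B), 5115 (D), 2554 (F) and 6989 (H) CPM in the endothelial libraries (log2 fold change -0.09, SE 0.39, edgeR adjusted p = 0.951). Like Itga5, it was lowest in E and F and highest in B. Of the 17 tested genes of other integrin ligands, 2 were called higher. Icam2, an endothelial ligand of leukocyte integrins, was at 13.4 (A), 12.8 (C), 14.8 (E) and 9.61 (G) CPM in the endocardial libraries and 2.14 (B), 2.48 (D), 1.88 (F) and 2.03 (H) CPM in the endothelial libraries (log2 fold change 2.57, SE 0.22, edgeR adjusted p = 0.00024). Egfl7, an endothelial matrix protein, was at 126 ± 15.7 against 38.2 ± 4.13 CPM (SD, n = 4 each, log2 fold change 1.72, adjusted p = 8.52e-05). Both kept their calls in all 17 alternatives. Egfl7 was also on the pan-endothelial marker list, 17 of whose 20 genes were called higher.

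The laminin receptors outside the integrin family, 8 tested genes, gave 0 calls by edgeR, with 4 at an unadjusted p below 0.05, beside 2.58% and 14.6% of all genes. Dag1, which codes for dystroglycan, was at 316 ± 49.99 against 400.2 ± 43.3 CPM (SD, n = 4 each, log2 fold change -0.34, SE 0.14, edgeR adjusted p = 0.296). Bcam, a receptor specific to the laminin alpha 5 chain, was at 63.5 (A), 77.6 (C), 57.4 (E) and 69.9 (G) CPM in the endocardial libraries and 79.2 (B), 96.5 (D), 116 (F) and 122 (H) CPM in the endothelial libraries (log2 fold change -0.62, SE 0.15, edgeR adjusted p = 0.0659). As with Lama5, all endothelial libraries lay above all endocardial libraries, and Bcam was called lower by DESeq2 (adjusted p = 0.00627), with 1 surrogate variable (0.0494) and without B (0.0233), but not by limma (0.0508). Of 34 tested adaptor and kinase genes edgeR called 0, with 10 at an unadjusted p below 0.05 (29.4%), 8 of them positive. Among all genes 14.6% passed that p, 781 of the 2023 with a positive log2 fold change. Tln1, the talin that activates integrins, had a log2 fold change of 0.20, its co-activator Fermt2 0.21, the integrin-linked kinase gene Ilk 0.19 and the focal adhesion kinase gene Ptk2 0.12, with edgeR adjusted p-values of 0.674 to 0.726. Of 18 tested inhibitors and traffic genes 1 was called higher, Tgm2, a transglutaminase that also acts as a fibronectin co-receptor of integrins, at 34.99 (A), 41.7 (C), 55.3 (E) and 32.2 (G) CPM in the endocardial libraries and 16.6 (B), 16.8 (D), 24.1 (F) and 10.3 (H) CPM in the endothelial libraries (log2 fold change 1.27, SE 0.25, edgeR adjusted p = 0.031). Its groups did not overlap, and the call held without F or without H but in none of the other 6 fits with a library left out, at an adjusted p up to 0.102.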

How the data were processed

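The authors deposited 1 table of estimated counts by gene symbol. Salmon, DESeq2 and build mm10 are named per the submitters' processing notes, without versions, transcript set or filters. The labels' protocols name a stranded kit. All values were whole numbers, so rounding changed nothing. Salmon assigns shared reads by a model.

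With edgeR 4.0.16 in R 4.3.3, counts were filtered by filterByExpr (minimum count 10, total 15), scaled by TMM and tested by its quasi-likelihood test (robust) over 8 libraries, endocardial minus endothelial, without a block. The labels do not say whether libraries with neighbouring letters share a culture or sort, so a paired difference was not tested. Adjusted p is Benjamini-Hochberg over 13817 genes. SE is the absolute log2 fold change over the square root of F. Levels per kb used merged exons of GENCODE M21 (GRCm38, the assembly of mm10), which holds all 37 members. Shares were tested by exact permutation over 70 assignments.

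Members called, or with a mean of at least 20 CPM, are given for every library, as are Itgb8, Itgb2 and Itgam, chosen like the single marker genes after their values were seen. 1 member is not reported here. Partner genes named were those called and 11 set ones. Members and lists were chosen with earlier results of these data known. Alternatives were DESeq2 1.42.0, limma 3.58.1 voom with quality weights, other scalings and filters, no robustness, 1 surrogate variable (sva 3.50.0), a threshold of 0.01, other gene lengths and leaving out libraries.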

Additional observations from a re-analysis of the deposited data

Results flagged for a closer look

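In 66 groups of 4 libraries (33 tested members in both cell types), 9 values lay apart from the other 3 libraries of their group by Dixon's ratio of the gap to the range. Chance gives about 1 in 20 groups. Library A held 5 of them: Itga2b at 306 CPM, Itgb3 at 340.1, Itgal at 9.42, Itgam at 12.5 and Itgb2 at 27.8 CPM, each far above the other endocardial libraries. Library B was far above the other endothelial libraries for Itga2b, at 184 CPM, and for Itgav, at 186 CPM. Library E was far below the other endocardial libraries for Itga5, at 221 CPM, and for Itgb5, at 165 CPM.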

How the results depend on the processing

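Against 356 genes, 2 members and 5 partner genes called, DESeq2 called 860 (330 higher, 530 lower, beside 196 and 160), 5 and 10, limma with voom weights 961 (409 higher, 552 lower), 5 and 11, and a threshold of 0.01 104, 0 and 3. Leaving out 1 library gave 135 to 457 genes, 0 to 2 members and 3 to 7 partner genes, the members being 0 without C, D, E or G and the partner genes 3 without D or G. Without B the 2 members were Itga9 and Itga2b, and without H they were Itga9 and Itgb8. Leaving out A and B together, chosen after seeing the data, gave 227 genes, 2 members (Itga9 and Itga2b) and 4 partner genes. Lama3 was not called in that fit (edgeR adjusted p = 0.0781). The cause of these changes was not tested. Other scalings, filters, no robustness and 1 surrogate variable gave 337 to 482 genes, 2 members and 5 or 6 partner genes. The difference in the Lama1 share ran from -8.58 to 1.002 percentage points and that in the leukocyte share from -0.276 to 0.478 on leaving out 1 library, changing sign without B and without A. With 3 against 4 libraries the smallest exact p is 0.0571, so those fits cannot pass 0.05. The other shares kept their direction under other gene lengths and left-out libraries. DESeq2 gave no adjusted p for Itga2b and Itgb3. Itga9, Lama3, Lama5 and Itgb8 kept their sign in all alternatives. The sort markers are unknown, and levels of members low in counts, such as Lama3, are limited by depth.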
